A study of Lolium arundinaceum with 18 samples.

Results

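Leaves of tall fescue sprayed with silicon nanoparticles (Si NPs) were compared under drought and under normal water, so that both sides of the comparison carried silicon. The libraries were chosen by their labels alone, as the 3 of the group Si NPs, which was the reference, and the 3 of the group DS_Si NPs, together 6 of the 18 libraries of the study. Both groups were sprayed with 300 mg/L Si NPs in water that held the surfactant Tween-20. The Si NPs plants were kept at 65 to 75% of field capacity and the DS_Si NPs plants at 35 to 45%, and leaves were taken on day 20. The other 12 libraries came from well-watered control plants sprayed with water (CK), drought-stressed plants for which no spray was named (DS), and plants given cellulose nanocrystals (CNCs) under each water regime (CNCs and DS_CNCs), with 3 libraries each. The drought response without a particle therefore differed from the silicon pair in the spray as well as in the silicon. The CNCs were sprayed at a lower dose than the 300 mg/L of the Si NPs. The nanocellulose pair thus differed from the silicon pair in dose as well as in particle. Plants were grown as many seedlings to a pot, and the labels do not say how many plants gave one library or that libraries came from separate pots, so p-values measure the spread between these libraries, which may be partly technical.

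In grass leaves, water deficit is known to raise the hormone abscisic acid, which closes stomata and switches on genes for dehydrins and late embryogenesis abundant (LEA) proteins, osmolyte enzymes and chaperones. Chaperones such as the small heat shock proteins hold unfolding proteins in solution, while HSP70 and HSP90 refold them. Silicon is deposited in grass cell walls and cuticles and is known for easing drought damage. Expression is given here as TPM, a level that takes the length of the transcript into account. A unigene is one assembled transcript, named by its number (DN...), and its product name is that of the best match in other species. Tall fescue is polyploid, so near-identical copies may share or split reads, and the level of a single copy is uncertain to that extent.

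The summed counts ran from 16175624 to 26102122 per library over the whole series. The DS_Si NPs libraries were the least alike of any group. The median standard deviation of a unigene within a group, on the log2 CPM scale, was 0.779 in DS_Si NPs, 0.586 in Si NPs, and between 0.398 and 0.631 in the other 4 groups. Each DS_Si NPs library stood highest for different genes. Library 1 had the highest level for 67.7% of the antenna protein unigenes, library 2 for 80.4% of the cytosolic ribosomal protein unigenes, and library 3 for 72.7% of the LEA and dehydrin and 75.8% of the small heat shock protein unigenes. Over all tested unigenes these shares were 32.1%, 28.4% and 39.5%. Library CK 3 lay unusually close to the weighted mean of CK 1 and CK 2 (median distance 0.183 on the log2 scale, against 0.353 to 0.84 for the other 17 libraries), and CK had the smallest spread of the 6 groups. The labels do not say whether CK 3 was a mixture of CK 1 and CK 2. If it was, CK holds 2 independent libraries, and its spread is understated in the test of DS against CK and in the test of the difference between responses, which called 150 and 8 unigenes without CK 3. The spread was estimated in a single model of all groups, so it may be understated in the test of DS_Si NPs against Si NPs as well. That test called 0 unigenes without CK 3. No marker of root (10 tested), flower and seed (44) or other organisms (51) was called by edgeR's quasi-likelihood test, DESeq2, edgeR's exact test or limma, and 4 of them were higher and 6 lower at an unadjusted p below 0.05. The leaf label could be checked on its own genes, since the antenna list summed to 36350 to 89369 TPM and the Calvin cycle list to 37565 to 93009 TPM in the 6 libraries.

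Drought changed few unigenes past the threshold in silicon-treated leaves. A unigene was called when its Benjamini-Hochberg adjusted p from edgeR's quasi-likelihood test was below 0.05 and its log2 fold change was above 2 in size. Of 55979 tested unigenes, 11 were called (0.0197%), of which 7 rose (0.0125%) and 4 fell (0.00715%). At the same adjusted p and any fold change there were 40 (0.0715%), 14 higher (0.025%) and 26 lower (0.0464%). In the untreated leaves, the same test of DS against CK called 1127 unigenes (2.01%), 890 that rose (1.59%) and 237 that fell (0.423%), and in the nanocellulose-treated leaves it called 23 (0.0411%). The count of 1127 rested on single libraries too, and was 150 without CK 3, 245 without CK 2, 359 without DS 2 and 447 without CK 1. The low count in silicon-treated leaves went with the wide spread of the DS_Si NPs libraries, whose part in it was not tested, and the sizes of the changes differed less than the counts did. The median size of the log2 fold change was 0.55 with silicon and 0.68 without a particle, and 10.4% of the tested unigenes moved by more than 2 on the log2 scale with silicon, against 16.2% without a particle. The share at an unadjusted p below 0.05 was 11.5% with silicon and 19.6% without a particle. Other tools called more. DESeq2 called 645 unigenes in silicon-treated leaves, edgeR's exact test 203 and limma on TPM 20, and the 11 were all among the first 2 of these sets, while 5 were among the limma calls. With only the 6 silicon libraries in the quasi-likelihood model none was called, although 3197 of the 37708 unigenes tested had an unadjusted p below 0.05 there, and none was called without Si NPs 1, Si NPs 2, Si NPs 3, DS_Si NPs 1, CK 3 or CNCs 1. The count was 2 without DS_Si NPs 3, CK 1, CK 2, CNCs 2 or CNCs 3, 4 without DS_CNCs 1 and 6 without DS_Si NPs 2. Each of the 11 calls therefore hangs on single libraries, controls included.

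**Figure D1:**
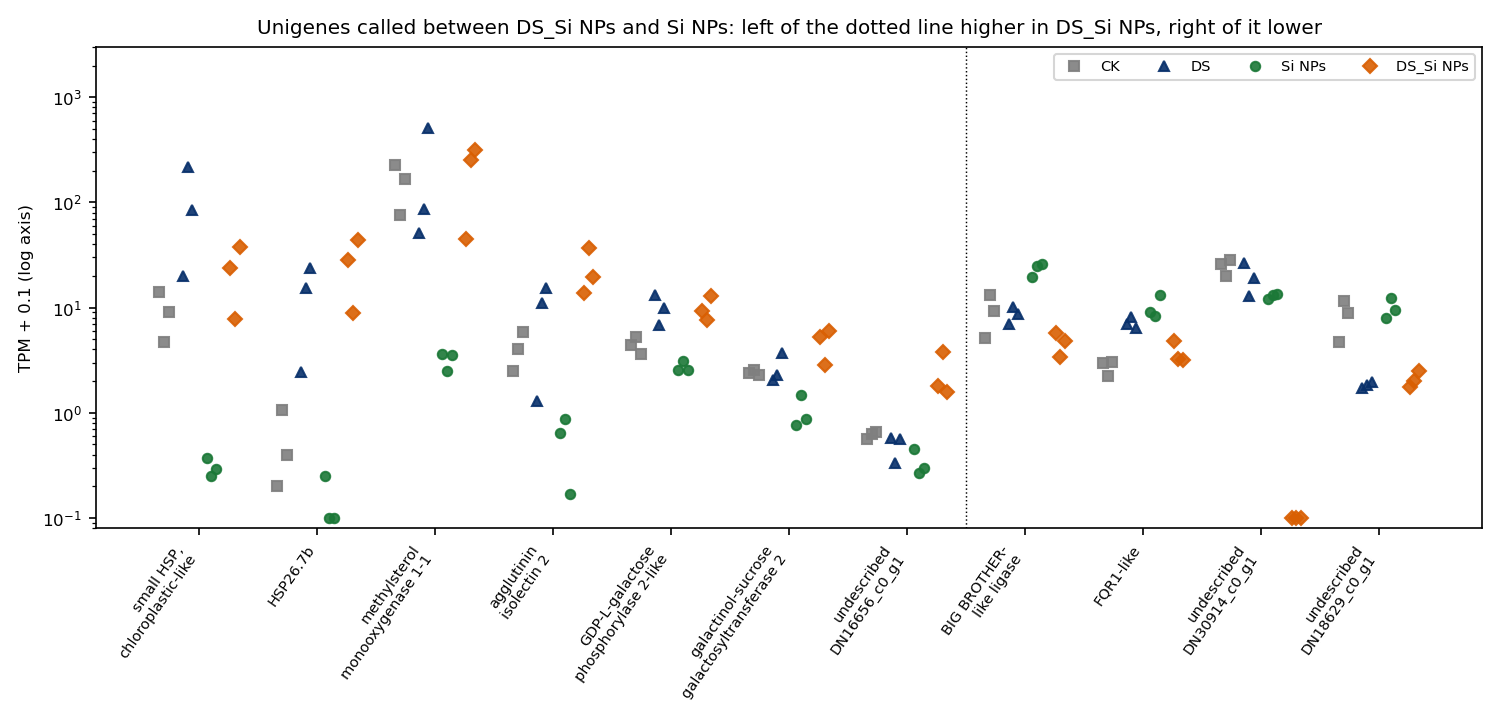
TPM plus 0.1, on a log axis, of the 11 called unigenes in the single libraries of CK, DS, Si NPs and DS_Si NPs, with those that rose left of the dotted line. In each unigene the 3 DS_Si NPs libraries all lay above, or all below, the 3 Si NPs libraries, which was so for 6.7% and 6.37% of all tested unigenes.

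Chaperones of the chloroplast made the largest rises. The unigene DN6654_c1_g1, a chloroplast small heat shock protein that guards stromal and thylakoid proteins, was at 0.27, 0.15 and 0.19 TPM in Si NPs 1 to 3 and at 23.9, 7.67 and 37.8 TPM in DS_Si NPs 1 to 3. All droughted libraries lay above all watered ones, and library 2 was the lowest of the 3. The log2 fold change was 6.67 ± 0.98 (SE, adjusted p = 0.0348). A second one, DN9986_c0_g1, matched HSP26.7b and held only 3 counts over the 3 Si NPs libraries (0.15, 0 and 0 TPM), against 28.5, 8.79 and 43.5 TPM in DS_Si NPs. The ratio of summed counts per library size was 407, with a 95% counting interval of 139 to 1975 that covers counting error only, and the adjusted p was 0.0436. The watered leaves also differed with the spray. DN6654_c1_g1 stood at 13.9, 4.59 and 9.04 TPM in CK, well above Si NPs, and at 19.9, 218 and 84.5 TPM in DS. Its change from CK to DS, 3.78 (adjusted p = 0.0168), and that of DN9986_c0_g1, 5.11 (adjusted p = 0.0245), were called too, and the differences between the responses, 2.90 (adjusted p = 0.235) and 3.43 (adjusted p = 0.337), were not. The third tested copy of this family, DN23159_c0_g1, was listed at 0 in all Si NPs libraries and at 26.6, 0 and 27.1 TPM in DS_Si NPs (adjusted p = 0.302). The family was gathered after its values were seen, and its summed TPM went from 0.15 to 1 in Si NPs to 20.2 to 142 in DS_Si NPs.

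Of the other 5 unigenes that rose, 4 matched a sterol enzyme, a lectin, an enzyme of ascorbate synthesis and a probable galactosyltransferase. The remaining 1 has no description. DN4603_c0_g1, methylsterol monooxygenase 1-1, which removes methyl groups on the way to plant membrane sterols, was at 3.54, 2.39 and 3.43 TPM in Si NPs and at 44.5, 254 and 316 TPM in DS_Si NPs. The groups did not overlap, and library 1 of DS_Si NPs was several times below the other two. The log2 fold change was 6.40 ± 1.06 (adjusted p = 0.0436). In CK the unigene was at 227, 76.4 and 166 TPM and in DS at 50.5, 86.4 and 506 TPM, a change of 0.66 (adjusted p = 0.721), and the difference between the responses was 5.74 (adjusted p = 0.0633). The watered nanocellulose leaves were as low as the watered silicon leaves, at 9.02, 1.41 and 4.44 TPM, and the DS_CNCs libraries were at 12.1, 82.6 and 48.6 TPM (3.19, adjusted p = 0.191).

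DN6198_c0_g1, agglutinin isolectin 2, a chitin-binding lectin of the wheat germ agglutinin type, was at 0.54, 0.78 and 0.07 TPM in Si NPs and at 13.6, 37.1 and 19.3 TPM in DS_Si NPs, a log2 fold change of 5.95 ± 1.02 (adjusted p = 0.0471). Its groups lay far apart, with DS_Si NPs 2 the highest. The unigene DN2378_c0_g1, named a root-specific lectin, was at 21, 28.7 and 13.6 TPM in Si NPs and at 61.1, 77.3 and 86.6 TPM in DS_Si NPs, also without overlap, but did not pass (1.85, adjusted p = 0.429). That unigene is one of the root markers, whose summed TPM was 70.2 to 91.1 in Si NPs and 131 to 185 in DS_Si NPs. Fewer cells of a type and less RNA per cell cannot be told apart in whole leaves.

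DN12227_c0_g1, a GDP-L-galactose phosphorylase, the enzyme of the first committed step of ascorbate synthesis, was at 2.47, 2.98 and 2.44 TPM in Si NPs and at 9.17, 7.59 and 12.8 TPM in DS_Si NPs. The log2 fold change was 2.07 ± 0.32 (adjusted p = 0.0354). DN150_c0_g1 matched a probable galactinol-sucrose galactosyltransferase 2, a name that stands for the step that makes raffinose. It was at 0.67, 1.39 and 0.77 TPM and at 5.18, 2.77 and 5.91 TPM, a change of 2.28 ± 0.35 (adjusted p = 0.0348). Both unigenes were higher in every droughted library. Whether the product of DN150_c0_g1 makes raffinose was not tested. Few of its relatives went with it. Of the 10 tested galactosyltransferase unigenes 4 had a positive change (median −0.09), and none of the 6 tested galactinol synthase unigenes, which make the galactosyl donor, was called or had an unadjusted p below 0.05. The last, DN16656_c0_g1, has no description and was at 0.35, 0.17 and 0.20 TPM in Si NPs and at 1.68, 3.67 and 1.47 TPM in DS_Si NPs (3.13 ± 0.47, adjusted p = 0.0348). It did not move from CK to DS (−0.31, adjusted p = 0.756), and the responses differed by 3.44 (adjusted p = 0.0353).

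Several of these rises started from a low level in the watered silicon leaves. In 6 of the 7 unigenes that rose, all 3 Si NPs libraries lay below all 3 CK libraries, which was so for 17.8% of all tested unigenes. The same Si NPs libraries chose these unigenes, so this is a description and no test. It was not counted for nanocellulose, but DN6654_c1_g1 was also below CK there, at 0.84, 1.03 and 1.39 TPM in CNCs.

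Of the 4 unigenes that fell, the clearest named one was DN3872_c0_g1, which matched the E3 ubiquitin ligase BIG BROTHER, in Arabidopsis a repressor of organ growth. It was at 19.6, 24.8 and 26.1 TPM in Si NPs and at 5.59, 3.32 and 4.72 TPM in DS_Si NPs, with no overlap. The log2 fold change was −2.38 ± 0.33 (adjusted p = 0.0348). From CK (5.08, 13.2 and 9.2 TPM) to DS (6.94, 9.96 and 8.64 TPM) it changed by 0.12 (adjusted p = 0.882), and the responses differed by −2.50 (adjusted p = 0.0335). Among these 4 groups the Si NPs libraries were the highest. The CNCs libraries were as high, at 22.2, 37.4 and 20.5 TPM, with DS_CNCs at 9.15, 10.3 and 8.55 TPM (−1.09, adjusted p = 0.195).

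DN4601_c0_g1, an FQR1-like quinone reductase, which keeps quinones reduced without forming radicals, was at 9.01, 8.3 and 13.1 TPM in Si NPs and at 4.74, 3.14 and 3.06 TPM in DS_Si NPs (−2.01 ± 0.32, adjusted p = 0.0432). It went the other way without a particle, from 2.84, 2.16 and 2.92 TPM in CK to 6.93, 7.95 and 6.33 TPM in DS (1.65, adjusted p = 0.0122), and the difference of −3.66 (adjusted p = 0.00698) was called whichever of the 18 libraries was left out. Its relative DN22664_c0_g1 was also lower under drought, at 52.6, 63 and 45.4 TPM against 19, 17.5 and 14.8 TPM, with a change of −1.59 (adjusted p = 0.0348) that did not reach the fold threshold.

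The other unigenes that fell have no description. DN18629_c0_g1 was at 7.86, 12.1 and 9.48 TPM in Si NPs and at 1.64, 1.91 and 2.37 TPM in DS_Si NPs (−2.22 ± 0.29, adjusted p = 0.0317), and its change from CK to DS was in the same direction (−2.06, adjusted p = 0.00261). DN30914_c0_g1 was at 11.9, 13.1 and 13.5 TPM in Si NPs and listed at 0 in all DS_Si NPs libraries, which makes it at least 12-fold lower against a floor of 3 counts over the group. It was present in CK (25.8, 20 and 28.4 TPM) and in DS (26.3, 12.7 and 18.8 TPM), and the responses differed by −6.51 (adjusted p = 0.0349), a fitted value that is no bound because of the zeros. Of all 11 called unigenes, 8 had the same direction from CK to DS, 3 of them called, and 10 had the same direction from CNCs to DS_CNCs, none of them called.

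A further 29 unigenes passed the adjusted p but not the fold threshold, 7 of them higher and 22 lower under drought. Those described here were picked after their values were seen. DN830_c0_g1, a respiratory burst oxidase A-like protein, which makes superoxide at the plasma membrane, was at 48.9, 71.7 and 62.5 TPM in Si NPs and at 22.8, 14.3 and 17.7 TPM in DS_Si NPs (−1.53 ± 0.25, adjusted p = 0.0436). Its response differed from that without a particle by −1.97 (adjusted p = 0.0335), under the fold threshold. Its family did not share the direction, since 10 of its 14 tested members had a positive change (median 0.53), with 2 higher and 2 lower at an unadjusted p below 0.05. DN4649_c0_g1, a class III peroxidase of the cell wall, was at 7.8, 10.9 and 10.6 TPM and at 2.73, 3.07 and 4.03 TPM (−1.53 ± 0.24, adjusted p = 0.0354). In both the 3 droughted libraries lay below the 3 watered ones. DN9299_c0_g1, an ascorbate-specific transmembrane electron transporter, was also lower (−1.14, adjusted p = 0.0436).

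Among regulators, DN24741_c0_g2, named CYP711A1-like after MAX1, in Arabidopsis an enzyme of strigolactone synthesis, was at 45.3, 56.9 and 65.5 TPM in Si NPs and at 18.9, 14.1 and 13.1 TPM in DS_Si NPs (−1.88 ± 0.28, adjusted p = 0.0348). Its change from CK to DS was −1.92 (adjusted p = 0.00297). All but 1 of the 8 tested members of that family had a negative change with silicon, with a median of −1.15 against 0.09 over all tested unigenes. The MYB factor DN8450_c0_g1 was lower as well (−1.46, adjusted p = 0.0348). Higher under drought were DN25594_c0_g1, a vacuolar amino acid transporter, at 4.47, 3.47 and 2.72 TPM against 11.1, 9.5 and 21.5 TPM (1.83, adjusted p = 0.0436), and DN10512_c0_g1, an AAA-type ATPase (1.50, adjusted p = 0.0436).

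The drought genes of the textbook were read through lists of product names. Over all tested unigenes 6.04% were higher and 5.46% lower at an unadjusted p below 0.05, and the median log2 fold change was 0.09. Lists are described by these counts and carry no test of their own. Counts given from CK to DS are of called unigenes, a stricter rule, so they cannot be compared directly with counts at the unadjusted p. Beyond the chloroplast chaperones DN6654_c1_g1 and DN9986_c0_g1, no unigene of any of the 47 lists was called in the silicon-treated leaves by the quasi-likelihood test. DESeq2, edgeR's exact test and limma called members of some of these lists, and their calls are given with each list described, where there were any. Over all unigenes DESeq2 called 356 as higher and 289 as lower, the exact test 114 and 89, and limma 12 and 8. The few calls in a list were not tested against these totals and are no result about that list.

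**Figure D2:**
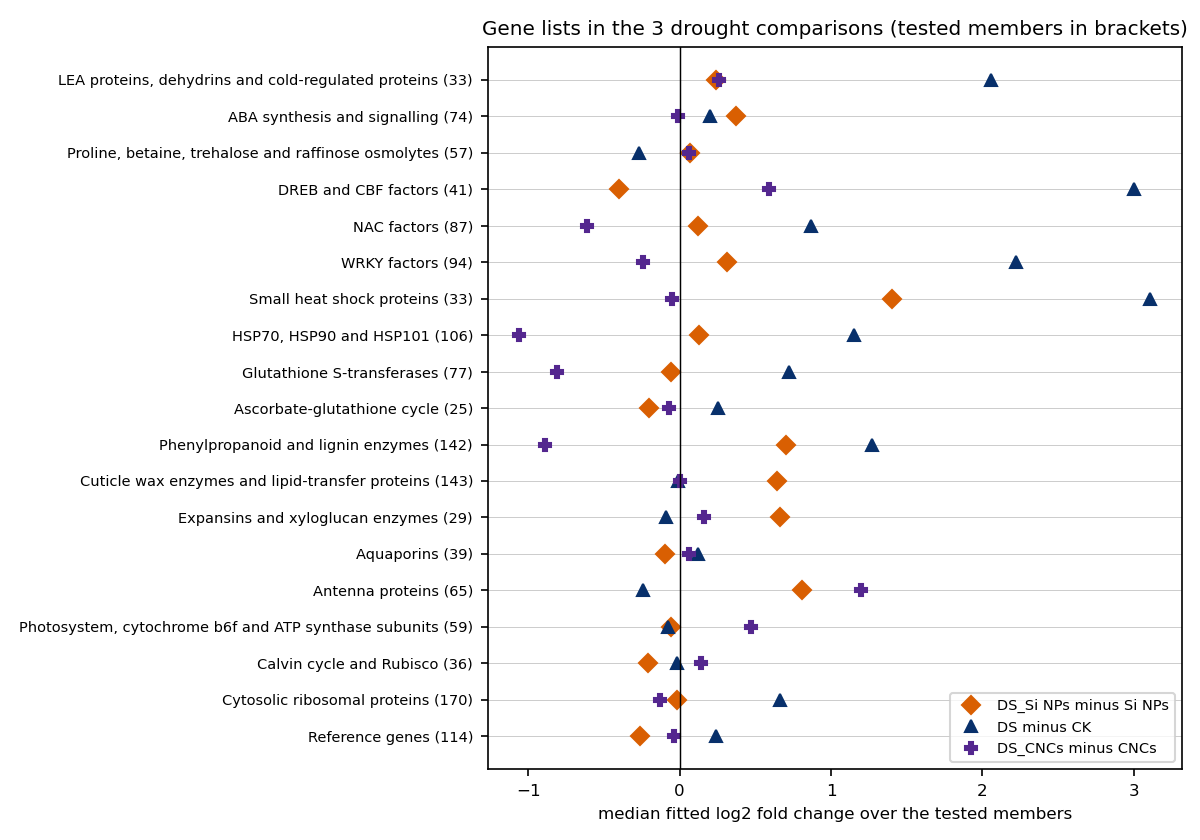
Median log2 fold change under drought over the tested members of each gene list on the axis, in the silicon pair (diamonds), the untreated pair (triangles) and the nanocellulose pair (crosses). The small heat shock proteins stood at 1.40 with silicon and 3.11 without a particle, and the DREB and CBF factors at −0.40 and 3.00. None of the DREB and CBF factors was called in either pair.

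Among chaperones, 12 of the 33 tested small heat shock protein unigenes were higher and 1 lower at an unadjusted p below 0.05, with a median of 1.40. From CK to DS 13 of the 33 were called as higher, with a median of 3.11, and by the same rule 2 were called with silicon. Of the 12, 11 had their highest level in DS_Si NPs 3. DESeq2 called 4 of the list as higher and 1 as lower, edgeR's exact test 4 as higher and limma 3 as higher. The summed TPM of the list was 593, 390 and 292 in Si NPs and 546, 436 and 897 in DS_Si NPs, and the groups overlapped. Its abundant class V member DN14421_c0_g1 was at 192, 170 and 143 TPM in Si NPs and at 109, 200 and 183 TPM in DS_Si NPs (0.06, adjusted p = 0.975). Of the HSP70, HSP90 and HSP101 list, which also holds co-chaperones, 15 were called as higher from CK to DS. In the silicon pair it had 10 higher and 7 lower of 106, none called by the quasi-likelihood test, and a median of 0.13. DESeq2 called 4 of that list and the exact test 2, all higher. HSP90-5 of the chloroplast (DN1630_c1_g1) was at 22.1, 19.5 and 17.2 TPM in Si NPs and at 33.1, 33.8 and 45.7 TPM in DS_Si NPs (0.93 ± 0.20, adjusted p = 0.108), so that the plastid form was higher in every droughted library.

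Among the genes of dehydration, 4 of the 33 LEA and dehydrin unigenes were called as higher from CK to DS, with a median of 2.06. With silicon 2 were higher and 1 lower at the unadjusted p, none called by the quasi-likelihood test, with a median of 0.24. DESeq2 and the exact test each called 1 of the list as higher. Dehydrin Rab15 (DN4104_c0_g1), a hydrophilic protein that coats membranes and proteins in drying cells, was at 2.61, 0.86 and 0.85 TPM in Si NPs and at 5.34, 6.79 and 59.2 TPM in DS_Si NPs (3.58 ± 1.00, adjusted p = 0.194). All droughted libraries were higher, and DS_Si NPs 3 stood far above the other two.

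The abscisic acid list had 23 of 74 higher and 4 lower, a median of 0.37, and 22 of the 23 had their highest level in DS_Si NPs 3. DESeq2 called 8 of the list and the exact test 3, all higher. Its leading member DN6033_c0_g1, a 9-cis-epoxycarotenoid dioxygenase, the rate-limiting enzyme of abscisic acid synthesis, was at 0.53, 0.31 and 0.55 TPM in Si NPs and at 2.46, 1.72 and 31.8 TPM in DS_Si NPs (4.47 ± 1.08, adjusted p = 0.134). Protein phosphatase 2C 8 (DN13726_c0_g1), of the family that brakes abscisic acid signalling, was at 0.16, 0 and 0.08 TPM and at 0.57, 0.34 and 6.62 TPM (adjusted p = 0.133). The order of the droughted libraries was thus the same in both, with library 3 far above. The DREB and CBF factors, which bind the dehydration-responsive element, had none of 41 past the unadjusted p in either direction and a median of −0.40. From CK to DS the median was 3.00, but none of them was called there. Their summed TPM overlapped, at 215 to 361 in CK and 280 to 970 in DS. No difference between the responses was called for them. DESeq2, edgeR's exact test and limma called none of them in the silicon pair. The osmolyte list had 0 of 57 higher and 5 lower. It was built from product names and does not hold the galactinol-sucrose galactosyltransferases, so DN150_c0_g1 is not in this count.

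**Figure D3:**
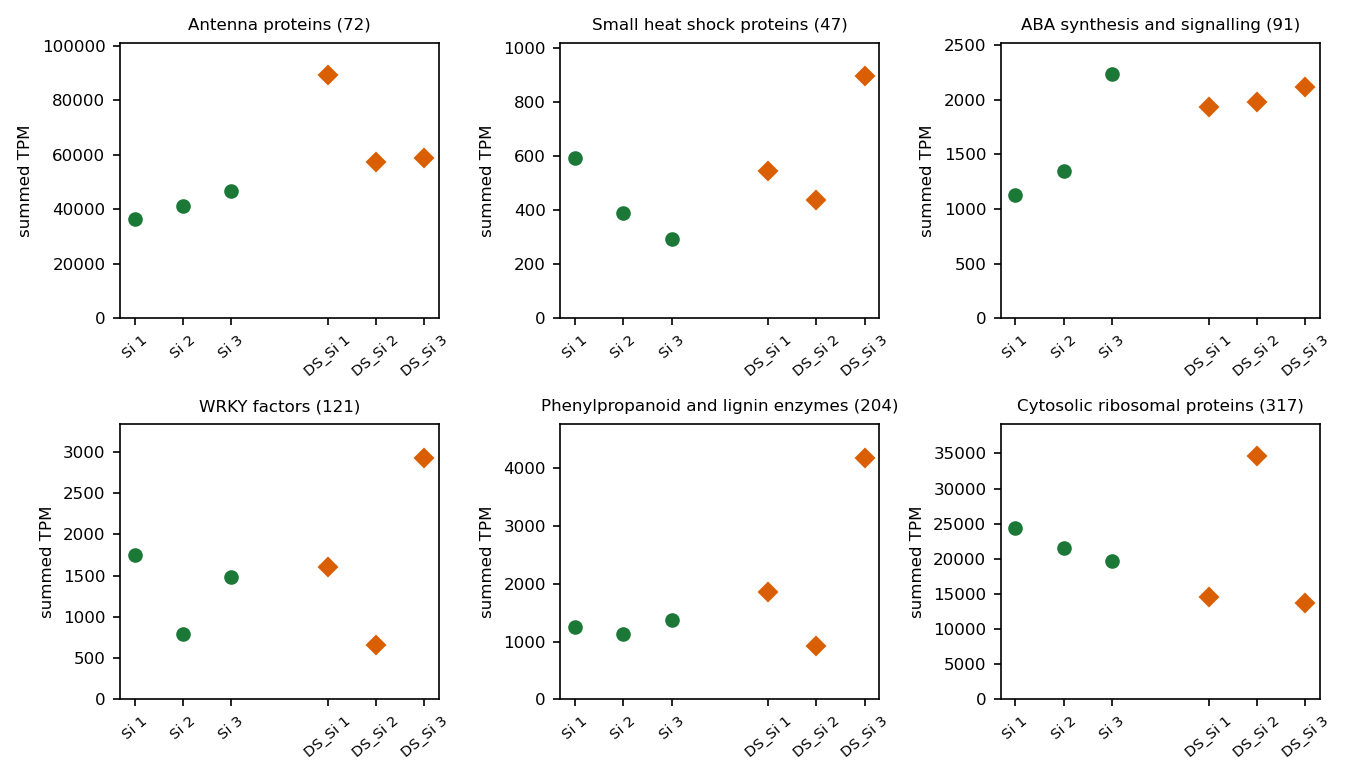
Summed TPM of 6 gene lists in each Si NPs library (circles) and DS_Si NPs library (diamonds), one panel a list, with all members counted. Antenna proteins were highest in DS_Si NPs 1 (89369), cytosolic ribosomal proteins in DS_Si NPs 2 (34637) and phenylpropanoid enzymes in DS_Si NPs 3 (4178), and of the 6 lists the antenna list alone had no overlap between groups.

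In the chloroplast, antenna proteins, which gather light for the photosystems, had 27 of 65 members higher and 1 lower, with a median of 0.81. Their summed TPM was 36350, 41297 and 46759 in Si NPs and 89369, 57492 and 58924 in DS_Si NPs, without overlap. Of the 27, 24 had their highest level in DS_Si NPs 1. DN2094_c3_g1, chlorophyll a-b binding protein 13, was at 152, 192 and 119 TPM against 2080, 713 and 735 TPM (3.07 ± 0.70, adjusted p = 0.114), and the abundant Lhcb1 copy DN9467_c1_g1 at 2223, 3149 and 4538 against 11844, 5540 and 7083 TPM (1.25 ± 0.33, adjusted p = 0.166). DESeq2 called 9 of the list, all higher, and edgeR's exact test 4. From CK to DS the median of the list was −0.24, and from CNCs to DS_CNCs it was 1.20, with 1 member called as higher. The summed TPM was 22041 to 26245 in CNCs and 38608 to 44855 in DS_CNCs, also without overlap. In CK it was 38453 to 66314, which overlapped both silicon groups. The photosystem subunits (2 higher and 8 lower of 59, median −0.06, of which DESeq2 called 2 as higher and 1 as lower) and the Calvin cycle genes (0 and 2 of 36, median −0.21) stood apart from the antenna in their counts. The small subunit of Rubisco, the enzyme that fixes carbon dioxide (DN24433_c0_g1), was at 40195, 16972 and 32507 TPM in Si NPs and at 28690, 18475 and 11920 TPM in DS_Si NPs (−0.66 ± 0.49, adjusted p = 0.661), with overlapping groups.

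At the leaf surface and in the wall, the cuticle wax and lipid-transfer list had 32 of 143 higher and 9 lower (median 0.64), the phenylpropanoid and lignin list 32 of 142 and 9 (median 0.70), and the expansin and xyloglucan list 7 of 29 and 1 (median 0.66). The lipid-transfer protein 2A DN14527_c0_g1, of a family that carries lipids to the surface, was at 68.1, 45.6 and 57 TPM in Si NPs and at 564, 665 and 172 TPM in DS_Si NPs (3.15 ± 0.60, adjusted p = 0.0727), at 423 to 1059 TPM in CK, and at 75.5, 49.4 and 118 TPM in CNCs, so that the watered leaves of both particles were lower than CK. The summed TPM of the cuticle list, 1874 to 2490 in Si NPs and 3279 to 3605 in DS_Si NPs, did not overlap. DESeq2 called 8 of that list as higher and 2 as lower, and the exact test 3 as higher. Of the phenylpropanoid list DESeq2 called 3 and the exact test 1, and of the expansin list each called 2, all higher. From CK to DS 16 of the phenylpropanoid list were called as higher and 1 as lower, with a median of 1.27. From CNCs to DS_CNCs its median was −0.89. Of its 32 higher members 20 were highest in DS_Si NPs 3. Its summed TPM was 929 in DS_Si NPs 2, below the lowest Si NPs library at 1136. Beta expansin 8 (DN44658_c0_g1), which loosens grass cell walls, was at 0.46, 0 and 0.32 TPM against 12.6, 4.39 and 6.43 TPM (adjusted p = 0.0899). Phenylalanine ammonia-lyase (DN2318_c0_g1), the entry enzyme of the phenylpropanoid pathway, was at 48.7, 27.2 and 49.6 TPM in Si NPs and at 136, 19.8 and 483 TPM in DS_Si NPs (2.26 ± 1.04, adjusted p = 0.421). The droughted libraries lay on both sides of the watered ones here. Cinnamoyl-CoA reductase 1 (DN11965_c0_g1), an enzyme of lignin monomers, was lower in every droughted library, at 134, 96.4 and 137 against 73.3, 75.3 and 83.5 TPM (−0.64 ± 0.13, adjusted p = 0.0966).

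The hormone lists leaned different ways. The cytokinin, ethylene and jasmonate list had 45 of 288 higher and 14 lower (median 0.25), and 35 of the 45 were highest in DS_Si NPs 3. DESeq2 called 6 of it as higher in the silicon pair. From CK to DS the quasi-likelihood test called 39 of it as higher, and none with silicon. The WRKY factors had 8 of 94 higher and 5 lower (median 0.31), and 15 were called as higher from CK to DS. The NAC factors, many of them drought and senescence regulators, had 4 and 4 of 87 (median 0.12), and 9 were called as higher from CK to DS. In the silicon pair DESeq2 called 3 WRKY factors as higher and 1 NAC factor as lower, and the exact test 1 NAC factor as lower. The auxin list leaned down, with 8 of 135 higher and 17 lower. DESeq2 called 1 of it as higher and 3 as lower, and the exact test 2 as lower. Its growth-related SAUR36 (DN15892_c0_g1) was at 9.31, 16.6 and 13.8 TPM in Si NPs and at 2.2, 3.14 and 1.98 TPM in DS_Si NPs (−2.38 ± 0.42, adjusted p = 0.0607), at 3.16 to 5.35 TPM in CK and at 10.3 to 13.6 TPM in CNCs. The watered leaves of both particles were thus above CK.

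Some abundant genes had lower levels without being called by the quasi-likelihood test. DESeq2 called 2 beta-glucosidases and 3 aquaporins as lower, and edgeR's exact test 2 and 1. The beta-glucosidases, which release sugars and defence compounds from glucosides, had a summed TPM of 2557, 2092 and 3551 in Si NPs and 1192, 993 and 1382 in DS_Si NPs. The member with the largest part in that difference among those named was DN6784_c0_g1 (939, 784 and 1648 against 92.6, 78.1 and 305 TPM, −2.77 ± 0.62, adjusted p = 0.114), which fell from CK to DS (−2.96, adjusted p = 0.0179). The vacuolar aquaporin TIP4-1 (DN1508_c0_g1), a water channel, was at 408, 660 and 684 TPM in Si NPs and at 76.2, 205 and 44.3 TPM in DS_Si NPs (−2.33 ± 0.54, adjusted p = 0.124), and at 61.9 to 67.7 TPM in CK. The watered leaves of both particles were above CK, since CNCs stood at 522, 514 and 447 TPM and DS_CNCs at 432, 125 and 213 TPM (−0.69, adjusted p = 0.576). Of the 3 unigenes named as silicon transporters 1 was tested, at under 1 TPM in all 6 libraries (−0.52, adjusted p = 0.908).

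The antioxidant lists did not move together. The class III peroxidases had 9 of 60 higher and 4 lower (median 0.42), of which DESeq2 called 2 as higher and 1 as lower. The ascorbate-glutathione list had 0 of 25 higher and 2 lower, catalase and superoxide dismutase 0 and 0 of 19, and the glutathione S-transferases 1 and 8 of 77, with medians of −0.20, −0.31 and −0.06. DESeq2 called 1 glutathione S-transferase as lower. The list of reference genes, expected to be even, had 1 of 114 higher and 21 lower and a median of −0.26, and its summed TPM was 12704 to 13388 in Si NPs and 9693 to 11888 in DS_Si NPs. Its part in the other medians was not tested.

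The unigenes called between DS and CK were followed into the silicon libraries, which that test of the contrast did not compare. The 890 unigenes that rose from CK to DS had a median log2 fold change of 3.78 there and 0.63 in silicon-treated leaves. With silicon 72.8% of them were positive, against 55.4% of all tested unigenes. At an unadjusted p below 0.05, 177 (19.9%) were higher with silicon, against 6.04% of all tested, and 2 were called. The 237 that fell from CK to DS had a median of −3.04 there and −0.17 with silicon. With silicon 55.3% of the 237 were negative and 1 was called. At an unadjusted p below 0.05, 42 (17.7%) were lower, against 5.46% of all tested. The median TPM of the 890 was 1.07 to 1.25 in CK and 12.5 to 17.3 in DS. With silicon it was 2.3 to 3.05 in the watered leaves and 4.53, 2.51 and 6.21 under drought. Droughted library 2 lay within the range of the watered ones, and libraries 1 and 3 above it. The values of DS and CK chose these unigenes, so their size there is a description, and sets chosen for a large change tend to show a smaller one in any other pair. A set chosen in part for low levels in CK also tends to stand higher in any other watered group, so the watered levels are a description too. With nanocellulose the 890 stood at 4.75, 5.89 and 6.86 TPM in CNCs and at 3.43, 2.32 and 5 TPM in DS_CNCs, with a median change of −0.26.

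**Figure D4:**
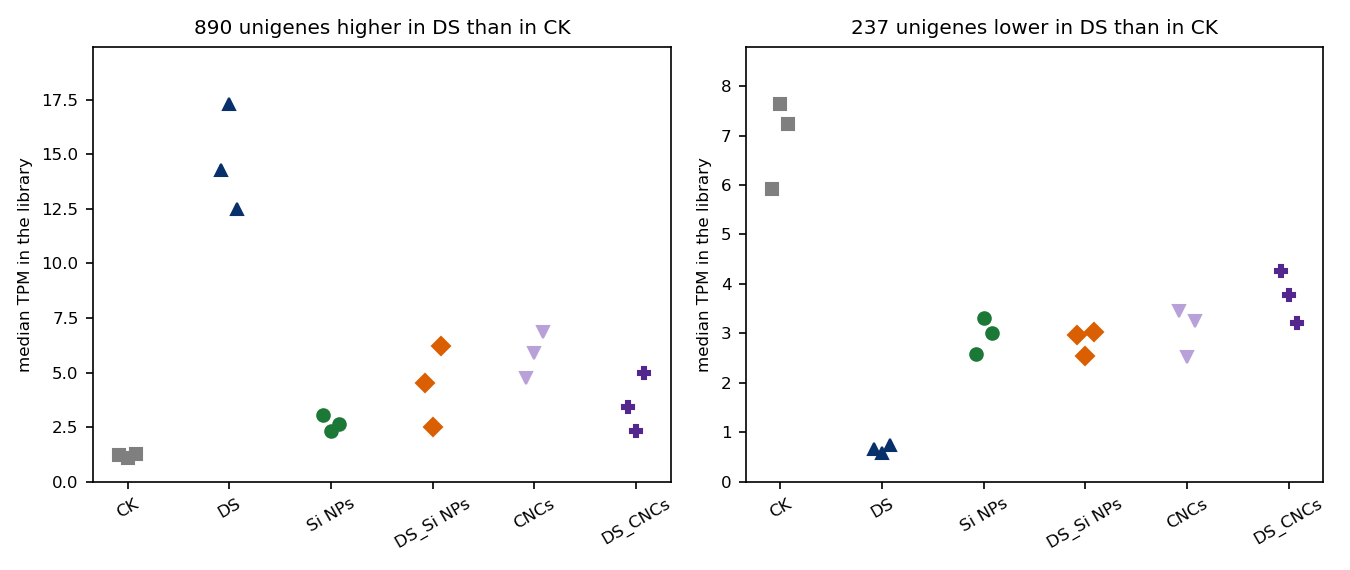
Median TPM in each library of the 6 groups, one point a library, for the 890 unigenes that rose (left) and the 237 that fell (right) from CK to DS. For the 890, DS stood at 12.5 to 17.3 TPM, Si NPs at 2.3 to 3.05 TPM and DS_Si NPs at 2.51 to 6.21 TPM.

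Whether a unigene answered drought differently with silicon was tested by the difference of both responses. It was called for 147 unigenes (0.263%), 38 with a more positive (0.0679%) and 109 with a more negative response with silicon (0.195%), and 92 of them were called between DS and CK too. Among the 109, 72 were called as higher from CK to DS and 108 were positive there. With silicon 3 were called and 14 were positive. The median change was 2.77 without a particle and −0.95 with silicon. The same libraries chose these unigenes, so the medians and counts are a description. In 84 of them (77.1%) all Si NPs libraries lay above all CK libraries, against 13% of all tested unigenes, a description since those libraries enter the test. Without Si NPs 1, Si NPs 2 or CK 3 only 8 unigenes were called, without CK 1 or DS 2 16, without CK 2 25, without Si NPs 3 27, without DS_Si NPs 1 38, without CNCs 1 or CNCs 3 42 and 49, without DS 1 57, without DS_CNCs 1 82 and without DS 3 354, so the set itself depends on single libraries.

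Cytosolic chaperones led the negative differences. DN28213_c0_g1, cytosolic HSP90.2, which matures kinases and receptors, was at 120, 161 and 188 TPM in Si NPs and at 66.9, 47.7 and 42.8 TPM in DS_Si NPs, while it went from 4.87, 7.2 and 5.94 TPM in CK to 375, 408 and 219 TPM in DS. The responses differed by −7.65 ± 0.67 (adjusted p = 0.0004), and the call held whichever library was left out. The watered silicon leaves were thus far above CK, while the change with silicon alone, −1.57, did not pass (adjusted p = 0.18). With nanocellulose the unigene was higher still in the watered leaves, at 512, 260 and 317 TPM, and it fell to 22.4, 28.4 and 66.4 TPM under drought (−2.96, adjusted p = 0.0311). DN14584_c0_g1, another HSP90.2 fragment (−4.44, adjusted p = 0.00726), and the HSP70 unigene DN10941_c0_g1 (−4.07, adjusted p = 0.00698) behaved alike and also held in every leave-out. The HSP70 was at 151, 122 and 155 TPM in Si NPs, 45.3, 73.7 and 84.5 TPM in DS_Si NPs, 39.2, 38.7 and 27.5 TPM in CK and 263, 349 and 148 TPM in DS. It too was higher in CNCs, at 225, 159 and 210 TPM, and fell in DS_CNCs (−2.08, adjusted p = 0.0408). In all, 6 of the 106 tested members of the HSP70, HSP90 and HSP101 list differed, all negatively. Over all tested unigenes the share of negative differences was 0.195%. The 5 unigenes named HSP90.2 summed to 243, 260 and 250 TPM in Si NPs and to 95.5, 80 and 92.5 TPM in DS_Si NPs, against 25.3 to 34.8 TPM in CK and 359 to 661 TPM in DS.

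Signalling and hormone genes followed. Calcium-dependent protein kinase 9 (DN2195_c0_g1) was at 3.96, 4.48 and 4.27 TPM in Si NPs and 4.16, 2.5 and 5.67 TPM in DS_Si NPs, against 2.53, 4.06 and 3.23 TPM in CK and 16, 11.1 and 15.1 TPM in DS (difference −2.50, adjusted p = 0.00726). With silicon the groups overlapped, and the call of the difference held in every leave-out. Of the 38 tested unigenes of the gibberellin list 3 differed, against 0.195% of all tested unigenes with a negative difference. They were the receptor GID1 (DN6487_c7_g1, −2.04, adjusted p = 0.0335) and the gibberellin-inactivating oxidases DN27187_c0_g2 (−2.49, adjusted p = 0.0385) and DN8351_c0_g1 (−4.04, adjusted p = 0.047). Of the 94 tested WRKY factors, which act in defence and senescence, 3 differed, all negatively. The largest difference was in WRKY70 (DN13101_c0_g1, −6.95, adjusted p = 0.0396), at 67, 16.3 and 38.9 TPM in Si NPs and 11.5, 3.54 and 42.7 TPM in DS_Si NPs. Proline dehydrogenase 2 (DN5934_c0_g1), which breaks down proline, differed by −3.42 (adjusted p = 0.0209), and was at 9.62, 13 and 15.2 TPM in Si NPs and 9.33, 7.24 and 8.47 TPM in DS_Si NPs. Glutathione S-transferase 2 (DN2866_c0_g1), which couples glutathione to toxic products, was at 21.2, 9.5 and 6.66 TPM in Si NPs and 2.66, 1.35 and 0.19 TPM in DS_Si NPs, against 2.26, 1.38 and 2.4 TPM in CK and 32.2, 20.9 and 57.2 TPM in DS (difference −7.51, adjusted p = 0.0335). All droughted libraries lay below the watered ones in the silicon pair and above them in the untreated pair.

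Of the 38 positive differences, 20 were called as lower from CK to DS and 0 were positive there. With silicon 1 was called and all 38 were positive. The median was −2.47 from CK to DS and 1.35 with silicon. In 23 of the 38 (60.5%) all Si NPs libraries lay below all CK libraries, against 17.8% of all tested unigenes. These values are a description too, since the same libraries chose the 38. Wall enzymes were among those named. Mannan endo-1,4-beta-mannosidase 1 (DN16663_c0_g1), which cuts wall mannans, was at 1.37, 0.68 and 3.06 TPM in Si NPs and at 5.73, 6.56 and 2.39 TPM in DS_Si NPs, while it went from 8.64, 11 and 9.13 TPM in CK to 0.45, 0.13 and 0.23 TPM in DS. The difference was 6.45 ± 0.80 (adjusted p = 0.00698) and held in every leave-out, though the silicon groups themselves overlapped. Glucuronoxylan 4-O-methyltransferase 1 (DN8296_c0_g1), which decorates xylan, was at 7.6, 9.29 and 8.73 TPM in Si NPs and at 47.8, 20.9 and 23.6 TPM in DS_Si NPs (2.02 ± 0.47, adjusted p = 0.128) and differed by 3.72 (adjusted p = 0.0335). The plasma membrane aquaporin PIP2-7 (DN2790_c1_g1) was at 4.04, 8.91 and 4.67 TPM in Si NPs and at 9.24, 14.5 and 15.4 TPM in DS_Si NPs, and it fell from 14.1, 2.82 and 8.41 TPM in CK to 0.45, 1.41 and 0.95 TPM in DS (difference 4.84, adjusted p = 0.0343). RNA-binding protein 19 (DN14633_c0_g1, 4.47, adjusted p = 0.0209) and the long-chain-alcohol oxidase FAO1 (DN29068_c0_g1, 3.61, adjusted p = 0.033) also had a more positive response with silicon.

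**Figure D5:**
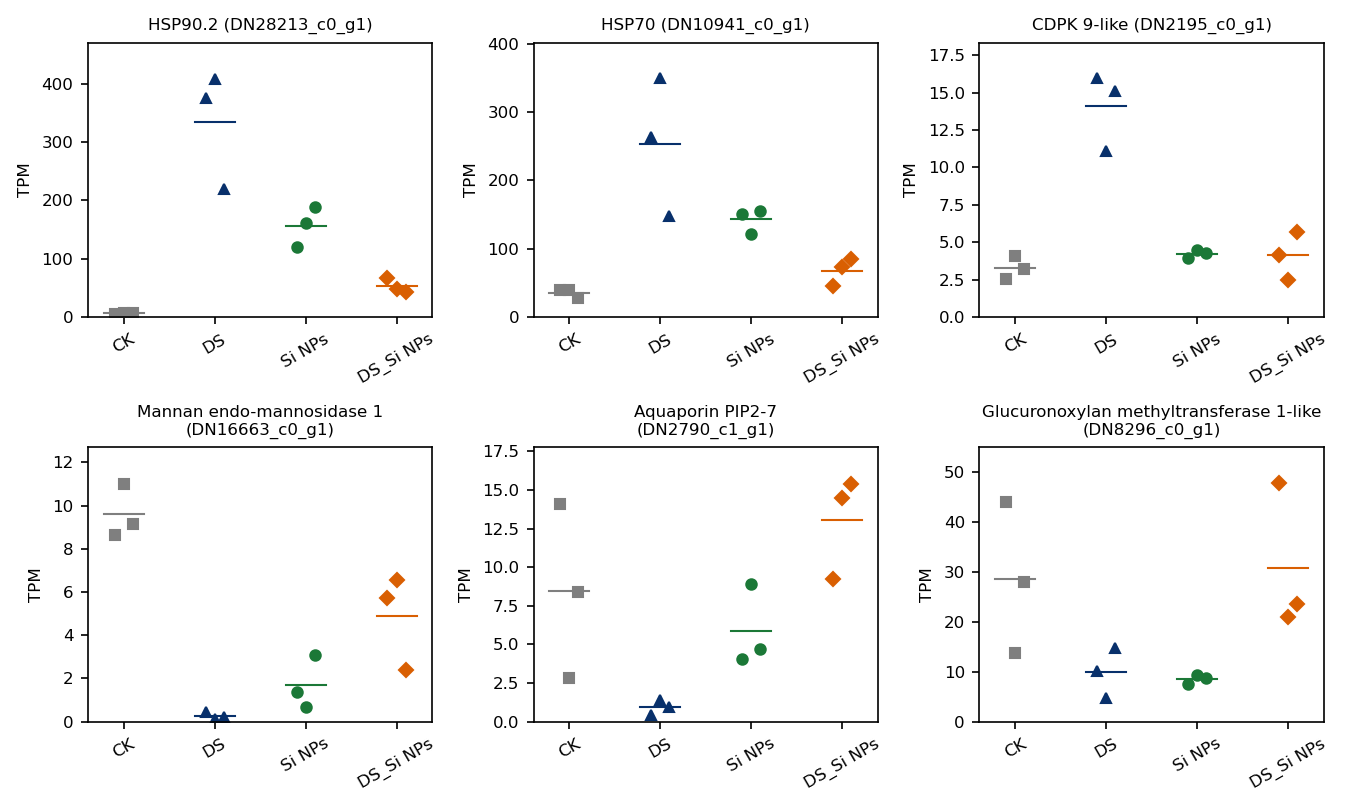
TPM of 6 unigenes whose drought response differed with silicon, in the single libraries of CK, DS, Si NPs and DS_Si NPs, with a line at each group's mean. In the upper row (HSP90.2, HSP70, kinase 9) DS is the highest group on average, and in the lower row (mannosidase, PIP2-7, glucuronoxylan methyltransferase) CK stands above DS on average while DS_Si NPs stands above Si NPs.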

How the data were processed

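Leaf RNA was sequenced in 18 libraries, and the 6 silicon libraries were compared within the whole table. Read trimming (Cutadapt), quality control (FastQC) and de novo assembly (Trinity, longest transcript kept as the unigene) were done by the authors, who named unigenes by their DIAMOND matches. The deposited table gives Salmon's estimated counts, which were rounded here because 452055 values were fractional. It also gives TPM, which the authors obtained from Salmon and which corrects for transcript length and sequencing depth. Of 109684 unigenes, 42440 had a description and 30262 a named product. Assembly without a genome can split a gene into several unigenes or merge copies, which spreads or mixes their counts.

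After filterByExpr, which retained 55979 unigenes, and TMM scaling, the 6 groups entered 1 quasi-likelihood model in edgeR (version 4.0.16, under R 4.3.3). The contrasts were DS_Si NPs against Si NPs, DS against CK, DS_CNCs against CNCs and the difference of the first 2 responses. Log2 fold changes come from this fit, with standard errors. An exact permutation test of 3 against 3 libraries cannot go below p = 0.1, so single unigenes were judged in the model. Alternatives were RLE scaling, DESeq2 1.42.0, edgeR's exact test, limma 3.58.1 on log2(TPM + 0.5), only the libraries compared, no filter, a mean of at least 5 TPM, log2 thresholds of 1 and none, a replicate block, and each library left out. The procedure was tested on simulated counts.

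In each direction the 12 called unigenes of lowest adjusted p were named that had a named product, a mean of at least 5 TPM in the higher group and no overlap between the 3 and 3 libraries. Where fewer than 5 were called, those of lowest p filled up to 5. The 5 called differences of lowest adjusted p were named in each direction under the same conditions, and in each of 47 lists the 3 members of highest mean TPM and up to 3 called in each direction. The lists and this rule were chosen with earlier results of these data known. The libraries compared were taken by their labels, though earlier results were known then too. The smaller changes, list members of lowest p, list members with a called difference, the families and the other called unigenes were named after their values were seen. The authors' physiological measurements were not analysed here.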

Additional observations from a re-analysis of the deposited data

Results flagged for a closer look

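For these unigenes the drought response with silicon differed from that without a particle by the model's test of the difference, given here on the log2 scale. Negative differences in chaperones were −7.65 and −4.44 in HSP90.2 (DN28213_c0_g1 and DN14584_c0_g1), −4.07 in HSP70 (DN10941_c0_g1), −4.50 and −4.39 in heat shock cognate 70 (DN9957_c0_g1 and DN22671_c0_g1) and −2.47 in the HSP90 ATPase activator DN8953_c0_g1. In WRKY factors they were −6.95 (WRKY70), −6.22 (WRKY76-like) and −4.82 (WRKY62-like), and in glutathione transferases −7.51 (DN2866_c0_g1) and −2.92 (DN8647_c0_g1). In hormone genes they were −2.04 (GID1), −2.49 and −4.04 (gibberellin oxidases), −5.09 (12-oxophytodienoate reductase 1) and −2.12 (protein phosphatase 2C 62). Others were −2.50 in calcium-dependent protein kinase 9, −3.42 in proline dehydrogenase 2, −2.80 in a sulfate transporter, −5.13 and −5.84 in aspartic proteinases, −2.50 in the BIG BROTHER-like ligase, −3.66 in the FQR1-like reductase and −6.51 in the undescribed DN30914_c0_g1. Differences of −10.60 and −12.67 in 2 resistance proteins (DN27969_c0_g1 and DN30772_c0_g1) rest on levels listed at 0 in all CK libraries, and their size depends on the prior count of the fit.

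Positive differences were 6.45 in mannan endo-1,4-beta-mannosidase 1, 5.34 in a xyloglucan endotransglucosylase (DN20339_c0_g1), 4.84 in aquaporin PIP2-7, 4.47 in RNA-binding protein 19, 3.72 in glucuronoxylan 4-O-methyltransferase 1, 3.61 in alcohol oxidase FAO1, 3.45 in laccase LAC5-4, 3.44 in the undescribed DN16656_c0_g1 and 2.67 in glucan endo-1,3-beta-glucosidase 5. Of all these, DN28213_c0_g1, DN14584_c0_g1, DN10941_c0_g1, the kinase DN2195_c0_g1, the reductase DN4601_c0_g1 and the mannosidase DN16663_c0_g1 were called whichever library was left out. The xyloglucan enzyme was called in only 1 of the 18 leave-outs, without DS_Si NPs 3. Others were nearly as fragile. WRKY62-like, WRKY76-like, protein phosphatase 2C 62 and DN22671_c0_g1 were lost in 15 of the 18 leave-outs. The oxidase DN8351_c0_g1 and the aspartic proteinase DN4714_c2_g2 were lost in 14. WRKY70, the sulfate transporter, DN27969_c0_g1 and DN16656_c0_g1 were lost in 13.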

How the results depend on the processing

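No change or difference that was called for a named unigene reversed its sign under the alternatives, while some that were not called did, and the counts of calls were not stable. In silicon-treated leaves the 11 calls became 33 at a log2 threshold of 1, 40 with no threshold, 645 with DESeq2, 203 with edgeR's exact test, 0 with only the libraries compared, 3 with no filter, 20 at a mean of at least 5 TPM and 20 with limma, and 0 to 14 when one library was left out. RLE scaling gave 12. With 0 calls from edgeR's quasi-likelihood test in the 6 libraries alone, 3197 of the 37708 unigenes tested had an unadjusted p below 0.05. In untreated leaves the 1127 calls became 1781 and 2175 at those 2 thresholds, 3340 with DESeq2, 2263 with the exact test and 746 with no filter, and 150 (without CK 3) to 1418 (without DS_Si NPs 2) when one library was left out, with 245 without CK 2, 359 without DS 2 and 447 without CK 1. In nanocellulose-treated leaves the 23 became 37 and 39 at those thresholds, 1065 with DESeq2, 554 with the exact test and 339 with limma, and 0 (without CNCs 1, CNCs 2 or DS_CNCs 2) to 69 (without DS_Si NPs 2) when one was left out. The 147 differences of response became 227 and 235 at those thresholds, 1854 with DESeq2, 50 with only the libraries compared, 80 with no filter and 27 with limma, and 8 (without CK 3, Si NPs 1 or Si NPs 2) to 354 (without DS 3) when one was left out. The cause of these changes was not tested.

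With the replicate number as a block, the calls were 2 in silicon-treated leaves (DN3872_c0_g1 and DN18629_c0_g1, both among the 11), 995 in untreated leaves, 10 in nanocellulose-treated leaves and 41 differences. The numbers share no stated pot or day. The deviations of same-numbered silicon libraries correlated at 0.114, 0.16 and −0.0227, where numbers 1 and 2 matched themselves best and number 3 matched number 1. In the nanocellulose pair each number matched itself best (0.0379, 0.042 and 0.0362), and in the untreated pair only number 3 did. So few libraries a group cannot decide whether the numbers pair the libraries. With 3 libraries a group, 16175624 counts in the smallest library and the wide spread of DS_Si NPs, a change that was not called may still be present.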
